A study of Rattus norvegicus with 4 samples.

Results

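The aryl hydrocarbon receptor axis was followed here through 6 rat genes, chosen as the rows whose gene name was Ahr, Arnt, Ahrr, Tiparp, Cyp1a1 or Cyp1b1. They are 6 of the 33778 gene identifiers in the deposited tables, and 5 of them reached a mean of 1 FPKM (fragments per kilobase of gene length, scaled to library depth) across the libraries, as did 12334 identifiers in all. Cyp1a1 did not. RNA came from H9C2, a rat cell line derived from embryonic heart, which the labels call cardiac myocytes, kept in DMEM with serum. There were 2 control libraries and 2 libraries from cells given PAGln at 100 µM, all for a treatment time of 48 h. No genetic change is given for either group. PAGln is phenylacetylglutamine, a conjugate of glutamine with phenylacetate from gut bacteria. No label ties the libraries to separate cultures, so any p-value measures only how these libraries vary, and that variation may be technical.

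The aryl hydrocarbon receptor is a transcription factor switched on by small molecules such as dioxins, polycyclic aromatic hydrocarbons and breakdown products of tryptophan. Without a ligand it is held in the cytosol by HSP90 and its partners. With a ligand it enters the nucleus, pairs with ARNT and binds xenobiotic response elements, short DNA motifs with the core GCGTG. Its classical targets include the cytochrome P450 genes Cyp1a1 and Cyp1b1 and its own inhibitors Ahrr and Tiparp. Cyp1b1 is known as the family member used by fibroblasts, smooth muscle and other mesenchymal cells, and Cyp1a1 as the one strongly induced in liver and epithelia.

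The target genes Cyp1b1, Ahrr and Tiparp had their highest level in control 1, as did 20.0% of the 12334 identifiers that reached the mean of 1 FPKM. The receptor Ahr ranged from 19.0 to 23.5 FPKM and its partner Arnt from 13.2 to 18.3 FPKM over the 4 libraries. Cyp1b1 was at 97.6 ± 47.2 FPKM without PAGln and 50.5 ± 9.76 FPKM with it (mean ± SD, n = 2 libraries each), and Ahrr at 18.2 ± 6.54 and 11.4 ± 2.25 FPKM. Ahr was at 19.5 ± 0.635 and 22.05 ± 2.03 FPKM. Cyp1a1 had 2 reads in control libraries and 1 read in PAGln libraries, reads being recovered from FPKM and gene length. The 6 genes were selected on pathway membership with the FPKM values of Cyp1b1 and Ahrr in these 4 libraries already known, so differences between the groups are given as a description of these libraries.

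The promoters of the feedback and P450 genes are shown, chosen with their shared highest library in view. Arnt, which was highest in PAGln 2, held 1 core match, as Tiparp did, and is not shown. Whether the motif has a part in these levels was not tested. Each line is the 250 bases before the gene's start, 5′ to 3′ on the gene's strand, from RefSeq on build GRCr8, and capitals mark the core GCGTG or its reverse complement CACGC. They lie at chr6:21094315-21094564 (plus strand) for Cyp1b1, chr1:30821969-30822218 (plus strand) for Ahrr and chr2:152063519-152063768 (plus strand) for Tiparp. The deposited annotation, whose rat build is not given, has Cyp1b1 on the minus strand of chromosome 6 from 2307808 to 2316722. The Cyp1b1 window and the measured row thus differ in strand and position.
Cyp1b1: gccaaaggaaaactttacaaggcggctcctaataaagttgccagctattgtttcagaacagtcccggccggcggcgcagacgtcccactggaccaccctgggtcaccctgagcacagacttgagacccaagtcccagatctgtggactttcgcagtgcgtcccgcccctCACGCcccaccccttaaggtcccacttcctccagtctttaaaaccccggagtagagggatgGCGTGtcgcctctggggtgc
Ahrr: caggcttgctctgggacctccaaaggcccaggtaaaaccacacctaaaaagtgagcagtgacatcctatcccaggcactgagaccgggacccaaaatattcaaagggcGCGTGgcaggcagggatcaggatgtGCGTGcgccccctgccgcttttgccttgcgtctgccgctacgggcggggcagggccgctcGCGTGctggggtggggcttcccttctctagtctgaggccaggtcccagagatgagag
Tiparp: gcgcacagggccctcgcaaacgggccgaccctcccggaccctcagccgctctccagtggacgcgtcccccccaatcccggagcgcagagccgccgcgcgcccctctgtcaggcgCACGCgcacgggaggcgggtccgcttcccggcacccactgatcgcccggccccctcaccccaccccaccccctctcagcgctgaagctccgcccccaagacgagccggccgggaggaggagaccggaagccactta

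The window searched ran from 250 bases before to 50 bases after the start, on both strands, and was found for 5 of the 6 genes, Cyp1a1 being without an entry. Ahrr had 3 matches to GCGTG and Cyp1b1 had 2. Arnt and Tiparp had 1 each, and Ahr had 0. The longer TNGCGTG, which contains the core, matched once in Cyp1b1, beginning 22 bases before the start, and once in Ahrr, 59 bases before it. Of 33469 RefSeq promoter windows, 29.7% held the core and 4.89% held the longer form. A match describes letters in a window and is no evidence of binding.

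Of the receptor pair, Ahr itself, on chromosome 6 from 54963990 to 55001464 in the deposited tables, was at 19.9 and 19.0 FPKM in control 1 and 2, and 20.6 and 23.5 FPKM in PAGln 1 and 2. Both PAGln libraries lay above both control libraries, as for 11.5% of tested genes. The log2 fold change (PAGln minus control, computed from log2(FPKM + 1)) was 0.17 (SE 0.12, limma's 95% interval from -0.13 to 0.47). Arnt, the partner that Ahr needs to bind DNA, is annotated on chromosome 2 from 196594303 to 196651179. It was at 16.4 and 13.8 FPKM in control 1 and 2, and 13.2 and 18.3 FPKM in PAGln 1 and 2, so that the PAGln libraries held both its lowest and its highest value. Its log2 fold change was 0.047 (SE 0.19), and it was -0.069 without control 2 and -0.17 without PAGln 2. Within each library the FPKM of Ahr was 1.22 to 1.56 times that of Arnt.

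Of the inhibitors, Ahrr encodes a repressor that competes with the receptor for ARNT. On chromosome 1 from 31603297 to 31698329, it was at 22.9 and 13.6 FPKM in control 1 and 2, and 9.78 and 12.96 FPKM in PAGln 1 and 2. Both PAGln libraries lay below both control libraries, by a small step between control 2 and PAGln 2, where the 95% counting intervals overlapped (12.8 to 14.5 and 12.1 to 13.9 FPKM). The log2 fold change was -0.61 (SE 0.27, limma's 95% interval from -1.30 to 0.084), and without control 1 it was -0.25.

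Tiparp encodes a mono-ADP-ribosyltransferase that modifies the receptor and lowers its activity, and is annotated on chromosome 2 from 157316266 to 157341469. It was at 26.4 and 14.8 FPKM in control 1 and 2, and 14.6 and 17.9 FPKM in PAGln 1 and 2. Control 1 stood apart and the other libraries lay close together, with PAGln 2 above control 2, so the groups overlapped. The log2 fold change was -0.28 (SE 0.28, limma's 95% interval from -0.99 to 0.44), and without control 1 its sign turned, to 0.12.

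Cyp1b1, the P450 that hydroxylates oestrogens and polycyclic aromatic hydrocarbons, was the most abundant member in every library. It is annotated on chromosome 6 from 2307808 to 2316722. Its level was 131 and 64.3 FPKM in control 1 and 2 (10728 and 5334 reads), and 43.6 and 57.4 FPKM in PAGln 1 and 2 (3249 and 4310 reads). Control 1 was 2.04 times control 2, a wider gap than the one from control 2 to PAGln 2. At these read numbers the exact Poisson 95% intervals, which cover counting error only, did not overlap between any libraries (for control 2, 62.6 to 66.05 FPKM, and for PAGln 2, 55.7 to 59.1 FPKM). The log2 fold change was -0.86 (SE 0.35, limma's 95% interval from -1.76 to 0.029), with -0.36 without control 1 and -1.37 without control 2.

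Cyp1a1, on chromosome 8 from 62472095 to 62478147, is the P450 most used as a reporter of receptor activity. Control 1 and PAGln 2 had 0 reads of it, control 2 had 2 and PAGln 1 had 1. With 0 reads the limit of 3 reads allows up to 0.0764 FPKM in control 1 and 0.0833 FPKM in PAGln 2. Both groups were at or under that limit, so no fold is given. Its related gene Cyp1a2, a liver P450 from the list of other targets, had 0 reads in all 4 libraries, while Cyp1b1 in these cells had a 4-library mean of 74.1 FPKM and was exceeded by 1128 of the tested genes.

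**Figure D1:**
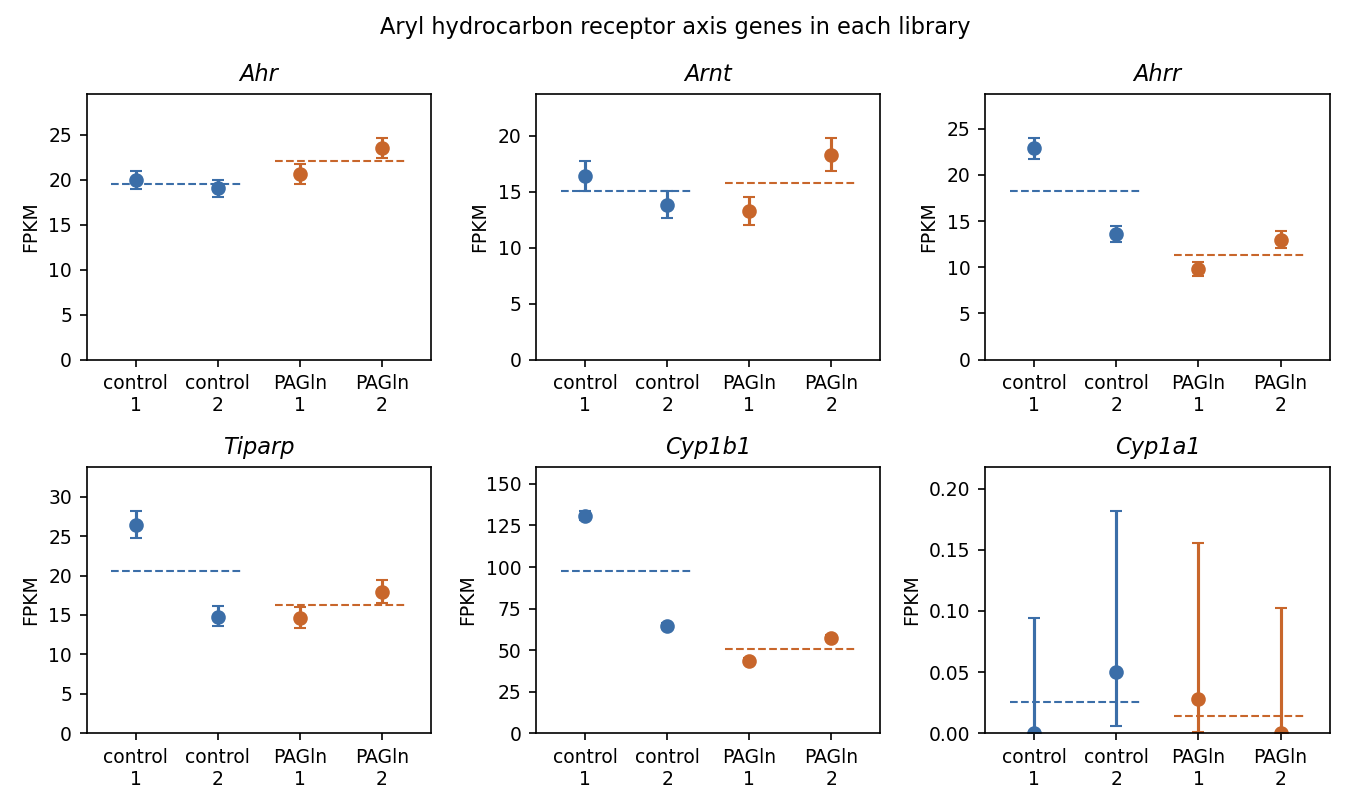
FPKM of the 6 genes in each of the 4 libraries (blue control, orange PAGln), on axes that start at 0 and differ in scale. Points are single libraries, bars are exact Poisson 95% intervals of the recovered reads, and dashed lines are means of a group. Cyp1b1, Ahrr and Tiparp are highest in control 1, Ahr and Arnt are highest in PAGln 2, and Cyp1a1 is at or near 0.

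In order of mean level, Cyp1b1 (74.1 FPKM) stood well above Ahr (20.8 FPKM), Tiparp (18.4 FPKM), Arnt (15.4 FPKM) and Ahrr (14.8 FPKM), with Cyp1a1 (0.0196 FPKM) far below. The 4 libraries of Cyp1b1 ranged from 43.6 to 131 FPKM, above every library of the other members. Neighbours below it overlapped in range (Ahr with Tiparp, Tiparp with Arnt and Arnt with Ahrr), while every library of Ahr (19.0 to 23.5 FPKM) lay above every library of Arnt (13.2 to 18.3 FPKM).

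With limma across all 12334 tested genes, the adjusted p of 0 genes (0%) was under 0.05. Without adjustment 262 genes had a p under 0.05, of which 126 were lower with PAGln (1.02%) and 136 higher (1.10%). None of the 5 tested members was among the 262, and each had an adjusted p of 1.00. Voom on the recovered reads also called 0 genes and gave 134 with an unadjusted p under 0.05. Cyp1b1 (voom unadjusted p = 0.031) and Ahrr (0.047) were among these 134. Cyp1b1 was also under 0.05 in limma with median scaling (unadjusted p = 0.048) and with a replicate block (0.026). That block takes same-numbered libraries as pairs, though no label gives a batch. Member values under the opposite pairing are not given. For Cyp1b1 the limma p was 0.055 with a pseudocount of 0.1, 0.070 with quantile normalization, 0.075 without a variance trend and 0.10 without a filter. None of these passed after adjustment. With 2 libraries against 2, an exact two-sided permutation test cannot give a p under 0.333. By sign, 3 of the 5 members were lower with PAGln, where 49.4% of tested genes were. Both PAGln libraries lay below both control libraries for Cyp1b1 and Ahrr, which is 2 of 5, where this held for 11.6% of tested genes. These counts come from the contrast the choice of members used, and nothing is read from them.

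**Figure D2:**
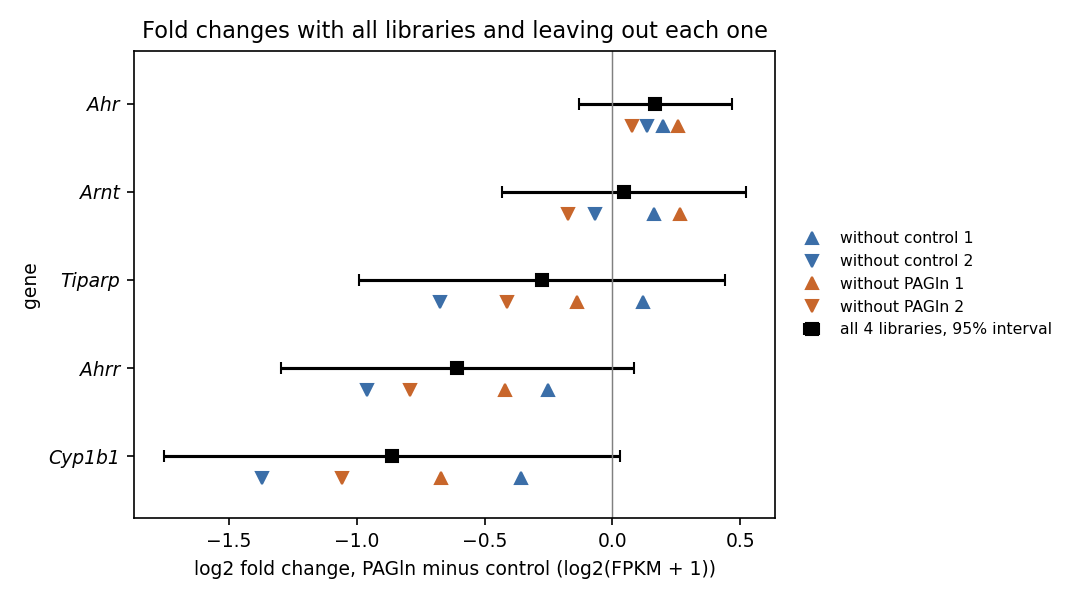
Log2 fold change of the 5 tested members, PAGln minus control, from log2(FPKM + 1). Black squares with bars are all 4 libraries with limma's 95% confidence interval, and triangles are values with 1 library left out. Every interval includes 0, the Tiparp value turns from -0.28 to 0.12 without control 1, and Cyp1b1 stays below 0, between -1.37 and -0.36.

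Between control 1 and control 2, Cyp1b1 differed by 1.02 on the log2(FPKM + 1) scale, Tiparp by 0.79 and Ahrr by 0.71, where the median absolute difference over the tested genes was 0.18. A larger absolute difference was found for 2.53% of tested genes in the case of Cyp1b1, 3.86% for Tiparp and 4.99% for Ahrr. Ahr differed by 0.063, and 81.3% of tested genes differed more. Between PAGln 1 and PAGln 2, larger absolute differences were found for 16.7% of tested genes in the case of Cyp1b1, 17.9% for Ahrr, 30.3% for Tiparp and 12.9% for Arnt. For Cyp1b1, Ahrr and Tiparp the difference between the control libraries was larger than the difference between the groups.

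PAGln 2 was above PAGln 1 by 0.39 for Cyp1b1, 0.37 for Ahrr, 0.28 for Tiparp, 0.44 for Arnt and 0.18 for Ahr. All 5 members were higher in control 1 than in control 2 and higher in PAGln 2 than in PAGln 1, an order shared by 34.3% of tested genes. The part of this likeness between control 1 and PAGln 2 in the members' values was not tested.

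**Figure D3:**
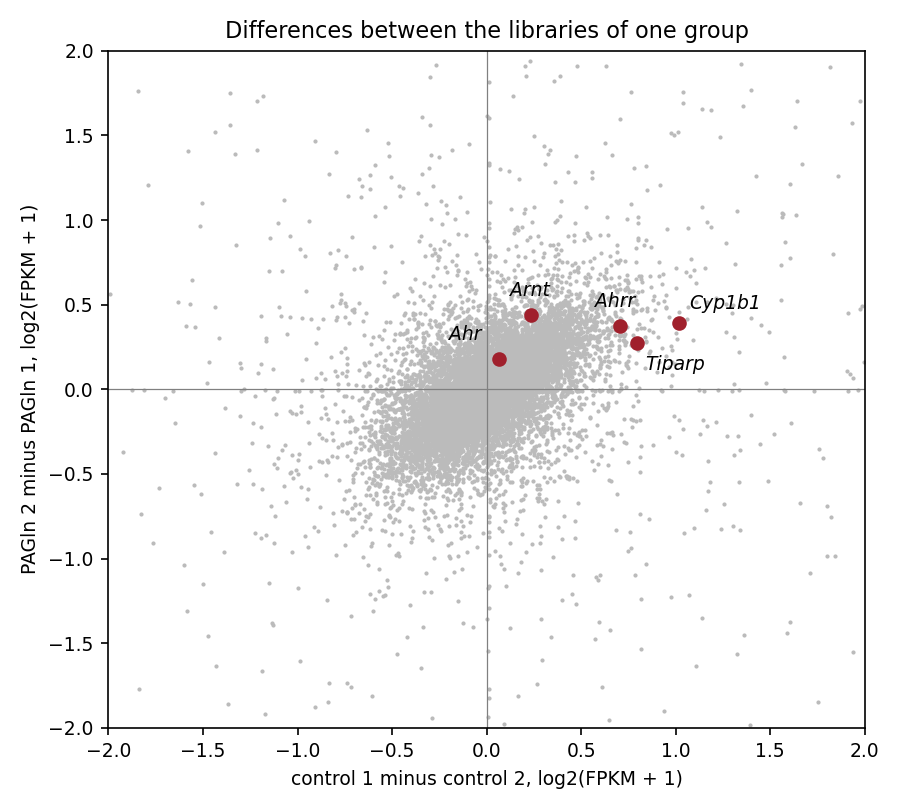
Difference between control 1 and control 2 (horizontal) and between PAGln 2 and PAGln 1 (vertical) for each tested gene, on the log2(FPKM + 1) scale. Grey points are the 12206 tested genes within 2 on both axes (128 lie outside), and red points are the 5 tested members. Cyp1b1, Tiparp and Ahrr lie at the right, at 1.02, 0.79 and 0.71 on the horizontal axis, and Ahr lies near the centre.

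The ratio of Cyp1b1 to Ahrr varied less between libraries than the ratio of either to the receptor. The members were chosen with the levels of Cyp1b1 and Ahrr already known, so this describes these libraries and is no test of shared regulation. In FPKM, which are per length, Cyp1b1 stood at 5.73 and 4.72 times Ahrr in control 1 and 2, and at 4.46 and 4.43 times it in PAGln 1 and 2. Cyp1b1 stood at 6.58 and 3.38 times Ahr in control 1 and 2, and at 2.11 and 2.44 times it in PAGln 1 and 2. The Ahrr to Ahr ratio was 1.15, 0.716, 0.474 and 0.552 in the same order, above 1 in control 1 alone among the 4 libraries.

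Likeness of profile was measured as the Euclidean distance between log2(FPKM + 1) values centred over the 4 libraries, against 8169 named protein-coding genes with a mean of at least 5 FPKM. The gene nearest to Cyp1b1 was S100a1, a small calcium-binding protein of muscle (distance 0.29), and the next was Ahrr (0.34). Slc2a5, a fructose transporter, followed (0.50). S100a1 was at 13.2 and 6.98 FPKM in control 1 and control 2 and 5.18 and 6.94 FPKM in PAGln 1 and PAGln 2. Nearest to Ahrr were S100a1 (0.088), Xdh (0.29) and Cyp1b1 (0.34). Xdh, xanthine dehydrogenase, is a further gene of the list of receptor targets.

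Tiparp had other neighbours, namely Zfp317, a zinc finger protein (0.18), Abhd2, a lipid hydrolase (0.23), and Klf9, a transcription factor induced by glucocorticoids (0.23). Klf9 was at 49.4 and 33.0 FPKM in control 1 and 2, and 32.6 and 42.2 FPKM in PAGln 1 and 2, with control 1 and PAGln 2 the higher library of each group. Oser1, Smc4 and Upf2 were nearest to Ahr (0.014 to 0.025), and Hus1, CYTB and Prpf39 were nearest to Arnt (0.029 to 0.038). With 4 libraries such distances describe these libraries only.

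Of 24 other genes known as targets of the receptor in rodent or human cells, 21 were found in the tables and 11 reached the filter. None passed over all genes, 6 were lower and 5 higher with PAGln, and the median log2 fold change was -0.031, beside 0.0021 over all tested genes. Nqo1, a quinone reductase that the receptor and NRF2 both induce, was at 80.9 and 74.1 FPKM in control 1 and 2, and 56.0 and 54.8 FPKM in PAGln 1 and 2. Here the libraries of a group lay close together (log2 fold change -0.48, SE 0.10, limma adjusted p = 1.00, unadjusted p = 0.0049). Both PAGln libraries lay below both control libraries, as for 11.6% of tested genes.

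Xdh, the purine-oxidising enzyme, was at 53.7 and 35.8 FPKM in control 1 and 2, and 31.4 and 33.7 FPKM in PAGln 1 and 2. As with Cyp1b1 and Ahrr, control 1 stood apart and control 2 lay nearer to PAGln 2 than to control 1 (log2 fold change -0.42, SE 0.20). Hes1, a Notch-responsive repressor, was at 11.6 and 12.4 FPKM without PAGln and 10.4 and 10.6 FPKM with it. Il6, the cytokine, was at 6.17 and 6.60 FPKM without PAGln and 6.99 and 7.15 FPKM with it. Of the 11 genes, 4 were highest in control 1, where 20.0% of tested genes were. Aldh3a1, the aldehyde dehydrogenase of the receptor's classical battery, had 1 read, in control 1, and 5 of the 21 had 0 reads in all 4 libraries.

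**Figure D4:**
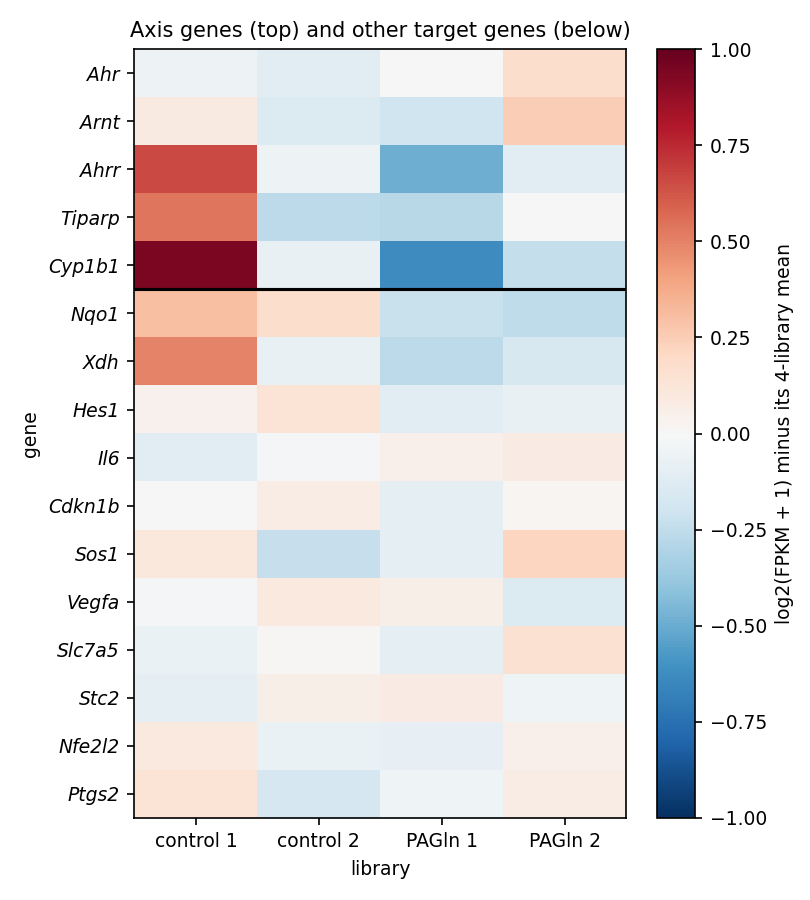
Level of each gene in each library as log2(FPKM + 1) minus its mean over the 4 libraries (red above, blue below), for the 5 tested members above the line and the 11 tested genes of the other target list below it, in order of unadjusted p. Cyp1b1, Ahrr, Tiparp and Xdh are reddest in control 1, Nqo1 is above its mean in both control libraries, and the lower rows are pale.

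RNA of genes for the cytosolic complex that holds the receptor was present. Hsp90ab1, the constitutive HSP90, had a mean of 788 FPKM, and Ptges3, the cochaperone p23, 157 FPKM. None of the 4 listed genes passed, 2 were lower, and the median log2 fold change was -0.066, which was 0.0066 without PAGln 2. Hsp90aa1, the inducible HSP90, was at 49.4 and 44.8 FPKM in control 1 and 2, and 11.8 and 41.5 FPKM in PAGln 1 and 2, so that PAGln 1 alone was low. A second locus carries the same protein's description, and since reads may be split between such copies this level is uncertain. Src, the kinase reported in the complex, was at 23.8 and 24.8 FPKM without PAGln and 22.8 and 20.1 FPKM with it.

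Other proteins of the bHLH-PAS family, to which Ahr and Arnt belong, were also present. Of 18 identifiers 12 were tested, none passed, 5 were lower and 7 higher, with a median log2 fold change of 0.026. With 1 library left out the median ranged from -0.13 to 0.19, and the number lower from 1 to 9 of 12. Sim2, a family member that also pairs with ARNT, was more abundant than Ahr, at 63.9 and 50.7 FPKM in control 1 and 2, and 40.8 and 51.6 FPKM in PAGln 1 and 2. Control 1 was again highest and PAGln 1 lowest, an order shared by 6.48% of tested genes, and its groups overlapped. Hif1a, the oxygen-regulated subunit that uses the same partner, was at 30.3 and 25.1 FPKM without PAGln and 27.6 and 32.7 FPKM with it. Arnt2, a paralog of Arnt, had a mean of 13.7 FPKM, close to the 15.4 FPKM of Arnt.

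Among the coregulators, 14 of 15 identifiers were tested, none passed, 2 were lower and 12 higher, and the median log2 fold change was 0.041 (from -0.10 to 0.18 with 1 library left out). Over all tested genes 49.4% were lower, and of the 14 coregulators 9 were lower without control 2 and 7 without PAGln 2. Ncoa3, a coactivator, was at 6.61 and 5.84 FPKM without PAGln and 6.86 and 8.003 FPKM with it. Smarca4, the ATPase of a chromatin remodelling complex, was at 35.8 and 35.9 FPKM without PAGln and 37.1 and 36.95 FPKM with it. Of the genes of receptor turnover and ADP-ribosylation, all 9 identifiers found were tested, none passed, 5 were lower, and the median was -0.064 (0.014 without PAGln 2 and -0.16 without PAGln 1). Cul4b, the scaffold of a ubiquitin ligase that the receptor can join, had a mean of 23.4 FPKM.

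Few enzymes that make receptor ligands from tryptophan reached the filter. Of 11 identifiers 2 were tested and neither passed. Kyat1, a transaminase that can act on kynurenine, was at 11.2 and 10.9 FPKM without PAGln and 8.23 and 9.25 FPKM with it (log2 fold change -0.31, SE 0.13, limma adjusted p = 1.00). Its PAGln libraries both lay below both control libraries, as for 11.6% of tested genes. Il4i1, an amino acid oxidase, was at 1.61 and 2.03 FPKM without PAGln and 1.99 and 2.20 FPKM with it. Tdo2 and Ido1, the dioxygenases that open the tryptophan ring, had 0 reads in all 4 libraries.

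Genes that serve P450 enzymes were present. Por, the reductase that passes electrons to P450 enzymes, was at 38.9 and 45.7 FPKM without PAGln and 42.5 and 37.3 FPKM with it, and Cyb5r3, the cytochrome b5 reductase, at 96.4 and 98.2 FPKM without PAGln and 90.3 and 90.0 FPKM with it. Of this list, 7 of 12 identifiers were tested, none passed and 6 were lower, with a median of -0.070 (0.015 without control 2). Cyp51, the sterol demethylase, was the only P450 gene of these lists with a higher mean than Cyp1b1, at 260 FPKM. Of the other xenobiotic receptors, 3 of 7 were tested, none passed and 2 were lower, and Nr1i2, the pregnane X receptor, had 4 reads in all.

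Over the 8 lists of other pathway genes, 59 different genes were tested. Of these 28 were lower and 31 higher with PAGln, where 49.4% of all tested genes were lower. With limma over all genes 0 passed (0%, and 0 with voom). Without adjustment 1 had a limma p under 0.05, beside 262 of the 12334 tested genes. Both PAGln libraries lay below both control libraries for 10 of the 59, beside 11.6% of tested genes, and above them for 6, beside 11.5%.

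As bulk RNA, these data cannot tell fewer cells of a type from less RNA per cell. Of 11 cardiomyocyte markers 3 were tested, with Tnnt2 at 157 FPKM, Nkx2-5 at 13.9 FPKM and Gata4 at 4.29 FPKM. Most defining markers of the labelled cell type thus lay under the filter. Of 9 myoblast markers 6 were tested, and Itga7 averaged 188 FPKM, Ncam1 109 FPKM, Cdh15 91.2 FPKM and Myod1 40.5 FPKM. The other tested myoblast markers, Des (4.76 FPKM) and Myog (1.33 FPKM), were low, and Myf5 and Pax7 were at 0. The smooth muscle actin gene Acta2 averaged 3843 FPKM and Col1a1, a collagen chain, 2977 FPKM. Of the other smooth muscle and pericyte markers, Tagln averaged 994 FPKM, Pdgfrb 92.1 FPKM and Cnn1 88.5 FPKM, while Des (4.76 FPKM), Myh11 (2.58 FPKM) and Mylk (1.49 FPKM) were low and Rgs5 was at 0. Acta2 made up most of the list's sum. The summed level of the 10 smooth muscle and pericyte markers was 5352 and 5389 FPKM without PAGln and 5466 and 4193 FPKM with it. That of the 10 fibroblast markers was 4735 and 5011 FPKM without PAGln and 4660 and 5098 FPKM with it, with Dcn and Lum at 0. Col1a1 made up most of the fibroblast sum. Col1a2 was at 393 and 441 FPKM without PAGln, and 413 and 831 FPKM in PAGln 1 and 2. Col1a1 was also highest in PAGln 2, while Col3a1, Thy1 and S100a4 were lowest there. Of the 7 epithelial and hepatocyte markers, Cdh1, Alb and Ttr had 0 reads in all libraries, while Krt8, a keratin, averaged 29.9 FPKM and made up most of the list's sum of 30.7 and 34.8 FPKM without PAGln and 30.2 and 27.2 FPKM with it. Control 1, where Cyp1b1, Ahrr and Tiparp were highest, was the highest library for 2 of 8 tested smooth muscle and pericyte markers (Acta2 and Pdgfrb). It was highest for 1 of 6 tested fibroblast markers (Postn), 0 of 6 tested myoblast markers and 0 of 3 tested cardiomyocyte markers. Over all tested genes, 20.0% were highest in control 1. Of the 7 marker lists, 0 had their highest sum in control 1. The part of these markers in the members' values was not tested. The libraries held from 13507110 to 14984712 recovered reads, and both control libraries were deeper than both PAGln libraries.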

How the data were processed

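RNA of 4 H9C2 libraries was sequenced after a TruSeq preparation, per the labels' protocols, which give the number of repeats in conflicting ways. The authors deposited FPKM per gene, 1 table per library. Per the submitters' processing notes, Bowtie 0.12.2 was used with hg38, a human build, though the rows are rat genes. For the counting tool, rat build, strand and handling of multiply matching reads, the entry is: not given in the sources used here. FPKM times gene length was a whole multiple of 1 step (within 0.01 of a read) for 100% of non-zero values, which gave reads if the smallest step is 1 read.

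Genes averaging at least 1 FPKM were fitted with limma 3.58.1 (R 4.3.3) on log2(FPKM + 1), eBayes with a trend, two-sided, Benjamini-Hochberg, threshold 0.05. The pseudocount understates changes of low genes. The fit was also run on simulated data. Those values were drawn independently for each library, so that run does not cover deviations shared between libraries. Members and lists were chosen with earlier results of these data known. Of 174 list entries 164 matched by name, and 1 further listed gene is not reported here. Named genes are all members, up to 4 of each list with the smallest p, the most abundant, and the 3 nearest profiles of each member. Cyp1a2, Aldh3a1, Tdo2, Ido1, Nr1i2, Cul4b, Arnt2 and the cell type markers were added outside that rule, with their values in view. Alternatives were another pseudocount, filter or scaling, no trend, voom, a replicate block and leaving out each library.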

Additional observations from a re-analysis of the deposited data

How the results depend on the processing

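All member fold changes kept their sign under the other pseudocount (0.1), median scaling, quantile normalization, no filter, no variance trend, voom and the replicate block, and no member passed under any alternative run (adjusted p from 0.445 to 1.00). With 1 library left out, taking the lone library of a group to vary as the other group does, the log2 fold change ranged from -1.37 to -0.36 for Cyp1b1, from -0.96 to -0.25 for Ahrr, from -0.67 to 0.12 for Tiparp, from -0.17 to 0.27 for Arnt and from 0.079 to 0.26 for Ahr. The number of the 5 members lower with PAGln ranged from 2 (without control 1) to 4. The count of genes past the threshold was 0 with all libraries, 7 with the replicate block, and 1 to 13 with a library left out. Same-numbered libraries were not taken as pairs, since no label gives a batch. Their deviations from the group means were correlated at r = -0.28 across 12334 genes, which are not independent replicates. With 2 libraries a group, the opposite pairing gives 0.28 by construction, so r cannot show whether libraries were prepared in pairs. A crossed replicate block, chosen after seeing the data, gave 0 (899 with an unadjusted p under 0.05, against 262).

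List medians with 1 library left out ranged from -0.11 to 0.0066 for the chaperones, from -0.16 to 0.014 for receptor turnover and from -0.12 to 0.015 for the P450 partners. The cause was not tested. The number of members with a promoter match was 4 with and without the bases after the start. With 2 libraries a group, the median half-width of a gene's 95% interval was 0.40 on the log2 scale.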
